A study of Mus musculus with 4 samples.

Results

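The 10 core autophagy genes Ulk1, Becn1, Map1lc3a, Map1lc3b, Gabarap, Gabarapl1, Gabarapl2, Sqstm1, Atg5 and Atg7 were examined in the hippocampal transcriptome of mice at day 1 after tibial fracture. They were taken by gene symbol from a table of 29300 genes. Each symbol matched 1 row, and all 10 genes passed the filter on low counts. Control mice (sham, n = 2) received isoflurane anesthesia and tramadol analgesia only, whereas surgery mice (n = 2) in addition had the tibia fractured in open surgery and fixed with an intramedullary nail. All 4 animals were C57BL/6 males without genetic modification, 7 to 8 months old. Polyadenylated RNA of whole hippocampal tissue was sequenced, with total counts of 15763432 to 18573386 per mouse, and the members had 277 to 10143 counts in each library. In such bulk tissue, fewer cells of a type and less RNA per cell cannot be told apart.

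Autophagy is the route by which a cell encloses cytoplasm, protein aggregates or organelles in a double membrane and delivers them to the lysosome. The ULK1 kinase complex starts the process, the Beclin 1 lipid kinase complex marks the forming membrane, and ubiquitin-like proteins of the ATG8 family (the LC3 and GABARAP proteins) are coupled to its lipids by a conjugation machinery that includes ATG7 and ATG5. Neurons depend on this route because they do not divide and cannot dilute damaged material, and receptors such as p62, the product of Sqstm1, link the cargo to ATG8 proteins.

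The 5 ATG8 genes share a plan that can be read in their coding sequence. ATG4 proteases cut the precursor behind a glycine near its end, and that glycine is then joined to the membrane lipid. The last 60 coding bases of each gene, stop codon included, are shown here 5′ to 3′ on the coding strand with the last in-frame glycine codon in capitals, because they show how alike the family is and where its members part. All were read from GENCODE transcripts on GRCm38 (mm10).
Map1lc3a (chr2:155277578-155277637, plus strand): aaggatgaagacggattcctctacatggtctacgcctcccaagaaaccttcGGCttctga
Map1lc3b (chr8:121596711-121596770, plus strand): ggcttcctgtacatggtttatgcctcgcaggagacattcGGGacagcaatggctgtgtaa
Gabarap (chr11:69994465-69994524, plus strand): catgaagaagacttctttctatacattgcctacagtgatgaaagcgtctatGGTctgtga
Gabarapl1 (chr6:129541108-129541167, plus strand): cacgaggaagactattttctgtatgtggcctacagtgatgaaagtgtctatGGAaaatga
Gabarapl2 (chr8:111952346-111952405, plus strand): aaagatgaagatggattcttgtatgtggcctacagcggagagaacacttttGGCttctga
In 4 of the 5 genes 1 codon follows the glycine codon, whereas Map1lc3b has 5. The genes also differ in base composition. At the third codon position 83.5% of the bases of Map1lc3a were G or C and 76.0% of those of Map1lc3b, against 57.3% in Gabarap, 68.4% in Gabarapl1 and 70.1% in Gabarapl2.

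After surgery, 5 of the 10 genes fell relative to control mice and none was called higher. Map1lc3a, which encodes an LC3 protein, fell the most (log2 fold change -0.70), followed by Atg7 (-0.49), Ulk1 (-0.42), Sqstm1 (-0.29) and Becn1 (-0.29). Without the second surgery mouse, Atg7 (-0.47) fell more than Map1lc3a (-0.43). The test was edgeR's quasi-likelihood test, fitted to all 17144 genes that passed the filter, and a gene was called when its p-value, adjusted over all of them for the share of false calls (Benjamini-Hochberg), was under 0.05. Over all genes, 12.8% were called lower and 13.1% higher by this rule. For the higher direction, 2 members had an unadjusted p-value under 0.05 in the edgeR test (Atg5 and Gabarap), and DESeq2 called 0 members higher with 0 at an unadjusted p-value under 0.05. The members had log2 fold changes between -0.70 and 0.37, their median being -0.29 against 0.01 for all genes tested. With the fold change required to be at most 0.67, only Map1lc3a of the 10 members was called (2.25% of all genes in that direction), and with a fold change of at least 1.5 no member was called higher (6.75% of all genes). Without the second surgery mouse (log2 fold change -0.43) or the second control mouse (adjusted p = 0.0700 by edgeR, within a range of 0.00109 to 0.237 over the alternatives), Map1lc3a did not pass the rule with a fold change of at most 0.67, and no member did. Both surgery mice lay below both control mice for 7 members and above them for 2, and such separation was seen in 32.2% of all genes for the lower and 33.2% for the higher direction. Without the second control mouse the log2 fold changes of the 5 called members ran from -0.65 to -0.26. Without the second surgery mouse they ran from -0.47 to -0.27. In both fits fewer members were called lower, and so were fewer of all genes. Fold changes also moved with the GC content of transcripts over all genes, and with trends in GC content and length removed 0 of the 10 members were called by edgeR. Levels are given as CPM, the count of a gene relative to the library total after TMM scaling, which sets libraries to each other on the assumption that most genes do not differ.

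**Figure D1:**
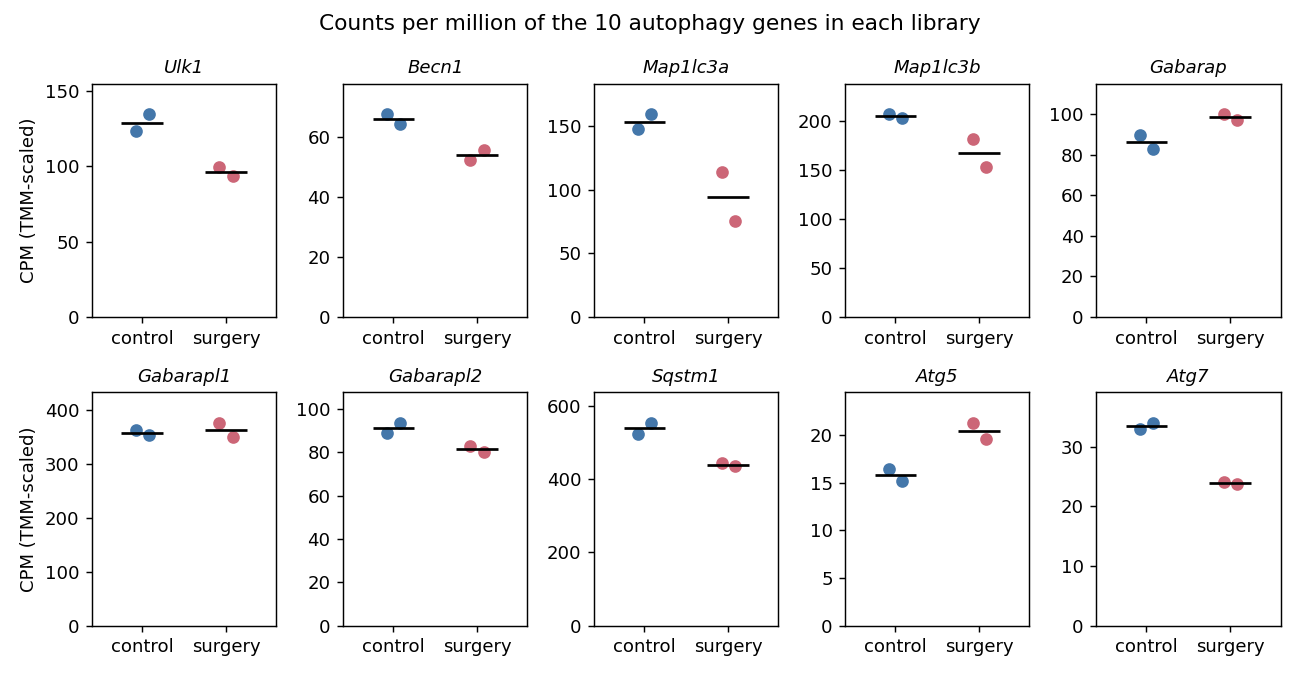
Level (CPM, TMM-scaled, with vertical axes that start at 0) of each of the 10 genes in the 2 control and 2 surgery mice, with points for mice and lines for group means. Surgery mice lie below control mice in 7 panels and above them in the panels of Gabarap and Atg5, and in the Gabarapl1 panel the groups overlap.

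Among the genes that start autophagy, Ulk1 encodes the kinase that nutrient and energy signals act on. It lies on chromosome 5 (mm10, 110784488 to 110810097, minus strand). Its level was 123 and 135 CPM in the control mice, compared with 99.4 and 93.5 CPM in the surgery mice. All surgery values lay under all control values, and the gap was wider than the spread within either group. The fold change was 0.747, or -0.42 on the log2 scale (standard error 0.07), with an adjusted p-value of 0.0104 in the edgeR test. The call of Ulk1 was kept when any single mouse was left out and was lost with GC and length trends removed (log2 fold change -0.15, adjusted p = 0.288 by edgeR, within a range of 0.000269 to 0.288 over the alternatives), also with the replicate block added (adjusted p = 0.160).

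Becn1 encodes Beclin 1, the regulatory subunit of the class III phosphatidylinositol 3-kinase complex, and lies on chromosome 11 (mm10, 101285952 to 101302286, minus strand). Control mice had 67.5 and 64.2 CPM, and surgery mice had 52.2 and 55.7 CPM. The groups did not overlap, and the log2 fold change was -0.29 ± 0.08 (standard error), with an edgeR adjusted p-value of 0.0366. The call was lost when any single mouse was left out, with an adjusted p-value of 0.031 to 0.126 over the 12 alternatives tried. Exons of Cntd1 on the opposite strand overlap 43.9% of the annotated Becn1 exon bases. Cntd1 itself had no more than 10 counts in any library, against 833 to 1175 for Becn1. The use of strand in counting is not given, so whether reads in the overlap were left out of the Becn1 count cannot be told.

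Within the ATG8 family, Map1lc3a fell, Map1lc3b had a negative fold change short of the threshold, and none of the 3 GABARAP genes was called. Map1lc3a (mm10 chromosome 2, 155276297 to 155278073, plus strand) had 147 and 159 CPM in the control mice, compared with 113 and 74.9 CPM in the surgery mice. The surgery mice were both below the control mice, but they also differed from each other by 0.60 on the log2 scale, the widest replicate gap of any member. Mean levels were 153 ± 8.41 CPM in control and 94.2 ± 27.3 CPM in surgery mice (SD, n = 2). On the log2 scale the difference was -0.70 ± 0.18 (standard error), with an edgeR adjusted p-value of 0.0317. The size of the fall depended on the second surgery mouse, since the log2 fold change was -0.43 without it and -1.05 without the first surgery mouse. The call was lost without the second control mouse (adjusted p = 0.0700 by edgeR) and by DESeq2 (adjusted p = 0.0613), within a range of 0.00109 to 0.237 over the alternatives. In that second surgery mouse the summed level of 4 oligodendrocyte markers was 3078 CPM, against 4318 to 5009 CPM in the other 3 mice. That of 4 hippocampal subfield markers was 294 CPM, against 348 to 380 CPM. The subfield markers did not move as a set, with Wfs1 at 107 CPM there, against 184 and 209 CPM in the control mice. Prox1 was at 119 CPM, above both control mice (107 and 83.1 CPM). The sum of endothelial markers was highest in that mouse (169 CPM, against 127 to 140 CPM). The part of these markers in the Map1lc3a values was not tested.

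Map1lc3b, whose protein LC3B is the usual marker of autophagosomes, lies on chromosome 8 (mm10, 121590361 to 121598760, plus strand). Its level was 207 and 203 CPM in the control mice, compared with 181 and 153 CPM in the surgery mice. The groups did not overlap, yet the log2 fold change of -0.29 (95% confidence interval -0.51 to -0.08) missed the threshold with an adjusted p-value of 0.0537 by edgeR. It passed by DESeq2 (adjusted p = 0.0148) and without the first surgery mouse (log2 fold change -0.44), and the adjusted p-value ranged from 0.00747 to 0.375 over the alternatives. The processed pseudogene Gm6055 shares 2.99% of the 75 nt windows of Map1lc3b transcripts and had 389 and 397 counts in control against 273 and 281 in surgery mice. How the counting treated reads that fit both genes is not given in the sources used here.

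Gabarap (mm10 chromosome 11, 69991143 to 69994951, plus strand) is the founding gene of the other ATG8 branch, first described through its binding to GABA-A receptors. It had 89.9 and 83.0 CPM in the control mice, compared with 100.2 and 97.4 CPM in the surgery mice. Both surgery mice lay above both control mice, opposite to the LC3 genes. The log2 fold change was 0.19 (95% confidence interval 0.02 to 0.36), with an adjusted p-value of 0.0931 by edgeR, so no rise was called.

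Gabarapl1 (mm10 chromosome 6, 129533160 to 129542346, plus strand) was the member with the smallest difference before GC and length trends were removed. With them removed its log2 fold change was 0.17, larger in size than those of Ulk1 (-0.15), Sqstm1 (-0.13) and Atg5 (0.12). Control mice had 363 and 353 CPM and surgery mice had 376 and 351 CPM. The groups overlapped, and the uncorrected log2 fold change was 0.02 with a 95% confidence interval of -0.13 to 0.17. This range leaves out changes as large as those of Atg7 or Ulk1 in the same fit. Its sign changed without the second control mouse (-0.0038) and without the first surgery mouse (-0.045). Exons of 1700101I11Rik on the opposite strand overlap 28.3% of the Gabarapl1 exon bases, and 1700101I11Rik had no more than 12 counts in any library.

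Gabarapl2 (mm10 chromosome 8, 111940703 to 111953612, plus strand), also known as GATE-16, had 89.2 and 93.6 CPM in the control mice, compared with 83.0 and 80.2 CPM in the surgery mice. The surgery mice were below the control mice, by 0.16 on average on the log2 scale (95% confidence interval of the log2 fold change -0.33 to -0.0015). With an adjusted p-value of 0.124 by edgeR it was not called, and over the alternatives this value ran from 0.0274, where the replicate block and the removal of GC and length trends were combined, to 0.385. Processed pseudogenes share 9.53% of its 75 nt windows, and the 3 of them that share over 1% had at most 5 counts in any library.

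Because the 5 ATG8 genes feed the same conjugation step, their make-up was also compared within each mouse, as the share of each gene in their summed counts per kilobase of exon. This share does not depend on how libraries are scaled to each other, but it was not corrected for GC content. GC content was 61.1% in Map1lc3a, 53.8% in Gabarapl1 and 50.6% in Gabarap. The shares are parts of a whole, so a lower share of any gene goes with higher shares of others. Map1lc3a made up 29.7% and 31.9% of the family in the control mice, compared with 24.2% and 18.4% in the surgery mice. Gabarapl1 made up 43.0% and 41.5% in the control mice, compared with 47.1% and 50.5% in the surgery mice, and Gabarap 11.6% and 10.7% against 13.7% and 15.3%. For these 3 genes, and also for Map1lc3b, the groups did not overlap. By level, the groups were separate in 32.2% of all genes for the lower and 33.2% for the higher direction. Shares of other genes were not computed. The shares of Map1lc3b were 6.55% and 6.38% in the control mice, compared with 6.07% and 5.88% in the surgery mice, and those of Gabarapl2 ran from 8.99% to 9.99% with overlap. With the length of the longest transcript in place of all exons, the mean share of Map1lc3b was 9.84% in control and 9.02% in surgery mice, over 1.5 times as high in each group. The ratio of Map1lc3a to Map1lc3b counts was 0.713 and 0.786 in the control mice, compared with 0.626 and 0.491 in the surgery mice. With 2 mice against 2, an exact permutation test of such a share cannot reach 0.05, and none was run. Summed over the family, the level was 419.9 and 422 CPM per kilobase in the control mice, compared with 397 and 345 CPM per kilobase in the surgery mice.

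**Figure D2:**
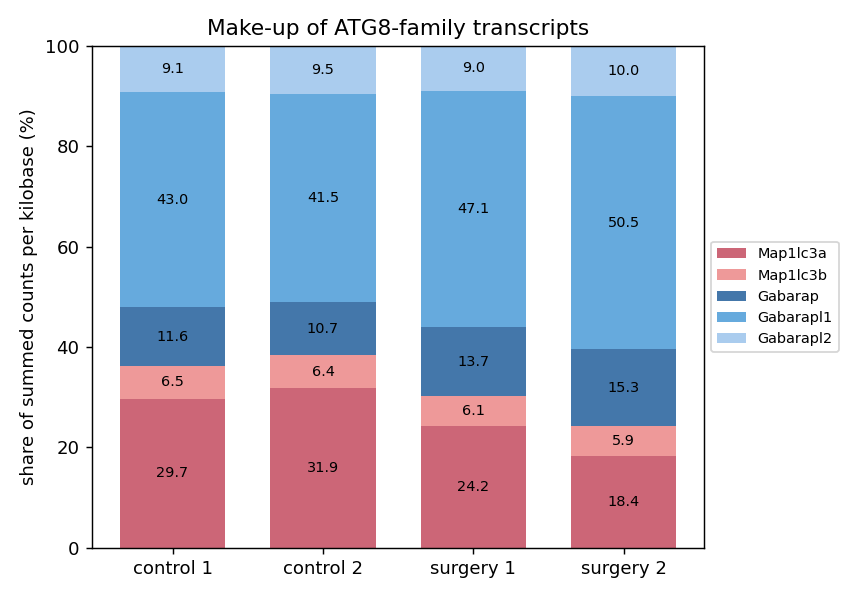
Share (%) of each ATG8-family gene in the summed counts per kilobase of exon of the family, 1 stacked bar per mouse, without correction for GC content. The share of Map1lc3a is 29.7% and 31.9% in the control mice, compared with 24.2% and 18.4% in the surgery mice, while that of Gabarapl1 reaches 47.1% and 50.5% in the surgery mice.

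The 2 genes of the conjugation machinery had fold changes of opposite sign, of which that of Atg7 passed the test. Atg7 (mm10 chromosome 6, 114643097 to 114860614, plus strand) encodes the E1-like enzyme that activates both ATG12 and the ATG8 proteins. It had 32.98 and 34.0 CPM in the control mice, compared with 24.0 and 23.7 CPM in the surgery mice, with the tightest replicates of the called members in the surgery group. The log2 fold change was -0.49 with a standard error of 0.09 (fold change 0.713), and the edgeR adjusted p-value was 0.0116, or 0.0501 without the second control mouse. It overlaps no other annotated exon and shares no 75 nt window with another gene.

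Atg5 (mm10 chromosome 10, 44268358 to 44364291, plus strand) encodes the acceptor of ATG12 in the E3-like complex that completes the ATG8 coupling. Its level was 16.5 and 15.1 CPM in the control mice, compared with 21.3 and 19.6 CPM in the surgery mice. Both surgery mice were above both control mice, and the log2 fold change was 0.37 (95% confidence interval 0.09 to 0.65). The adjusted p-value of 0.0619 by edgeR missed the threshold. It passed with the replicate number as a block (0.0464) and with library totals only (0.0423), and over the alternatives it ran from 0.0423 to 0.605. Atg5 had the lowest counts of the 10 members, 277 to 340 per library.

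Sqstm1 (mm10 chromosome 11, 50199366 to 50210827, minus strand) encodes p62, a cargo receptor that is itself degraded by autophagy. It had the highest counts of the 10 genes, with 524 and 554 CPM in the control mice, compared with 444 and 436 CPM in the surgery mice. The groups lay well apart relative to the spread within them, and the log2 fold change was -0.29 with a standard error of 0.06 and an edgeR adjusted p-value of 0.0149. The call was lost without the second control mouse (-0.26) and without the second surgery mouse (-0.27). Exons of Mrnip on the opposite strand overlap 17.3% of its exon bases, and Mrnip had 61 to 119 counts per library.

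Compared per length, the members spanned a wide range of levels. Given as the mean of the 4 libraries in CPM per kilobase of exon, the order was Gabarapl1 (179), Sqstm1 (146), Map1lc3a (105), Gabarap (50.2), Gabarapl2 (37.2), Map1lc3b (24.7), Ulk1 (17.4), Becn1 (8.48), Atg5 (7.70) and Atg7 (4.12). The ranges of neighbours overlapped between Sqstm1 and Map1lc3a, between Map1lc3b and Ulk1 and between Becn1 and Atg5, and were separate for the other 6 pairs. Between Becn1 and Atg5 the order differed between the groups, with Becn1 above Atg5 in the control mice (9.56 and 9.09 against 6.9995 and 6.43 CPM per kilobase) and below it in the surgery mice (7.38 and 7.88 against 9.05 and 8.33). This order rests on the length used. Per kilobase of the longest transcript, a choice added after the data were seen, Becn1 lay above Atg5 in all 4 mice, with 11.9 to 15.5 against 6.43 to 9.05 CPM per kilobase. The order of the 10 mean levels was the same with either length, and the mean of Map1lc3b went from 24.7 to 44.9 and that of Atg7 from 4.12 to 7.36 CPM per kilobase.

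The fold changes of the members were lower where the GC content of their transcripts was higher. Map1lc3a (61.1% GC) and Ulk1 (58.1%) were in the eighth of all tested genes with the highest GC content, and Atg5 (45.7%) had the lowest GC content of the 10. Across the 10 members, which were all measured in the same 4 libraries, Pearson's r between GC content and log2 fold change was -0.77 and Spearman's rho -0.70, and across all 17120 tested genes with a GC content they were -0.59 and -0.64. In the highest eighth the median log2 fold change of all genes was -0.34, with 38.3% of genes called lower, and in the sixth eighth, which holds Atg7, Map1lc3b, Gabarapl1 and Sqstm1, it was -0.17 with 18.9% called lower. Set against these medians, Map1lc3a (-0.70) and Atg7 (-0.49) lay further below than Ulk1 (-0.42) and Sqstm1 (-0.29) did, and Gabarapl1 (0.02) lay above. In the fifth eighth, with a median of -0.08, Becn1 was at -0.29 and Gabarap at 0.19.

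**Figure D3:**
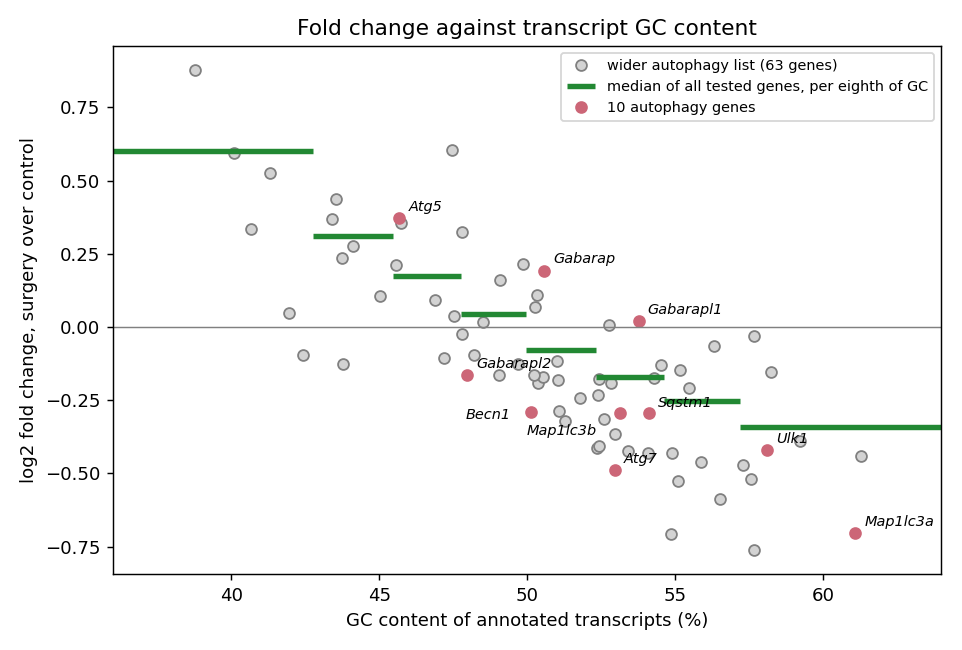
Log2 fold change of surgery over control mice against the GC content (%) of annotated transcripts, for the 10 genes (red, named) and a wider list of 63 autophagy genes (grey), with the median of all tested genes in each eighth of GC content (green, cropped at the axis limits). The points fall from upper left to lower right, along with the medians, which go from 0.60 to -0.34.

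The comparison was therefore repeated with the smooth trend of each library with GC content and exon length removed. None of the 10 members was then called by edgeR, with 3 lower and 1 higher at an unadjusted p-value under 0.05, and DESeq2 was not run on corrected values. Over all genes, 1.11% were called lower and 0.601% higher in this fit. With the replicate block added to the correction, Becn1, Atg7 and Gabarapl2 were called lower, as were 1600 of all 17144 genes. The corrected log2 fold changes of the genes called before were -0.39 for Map1lc3a, -0.37 for Atg7, -0.30 for Becn1, -0.15 for Ulk1 and -0.13 for Sqstm1. Becn1 thus kept its size, whereas the values of Map1lc3a, Ulk1 and Sqstm1 shrank by more than 1.5 times. The edgeR adjusted p-value of Atg7 was 0.0893 in the corrected fit without the block, the highest of its range over the alternatives, which began at 0.0087. Of the other ATG8 genes, Gabarap was at 0.21, Gabarapl1 at 0.17, Map1lc3b at -0.17 and Gabarapl2 at -0.28, and Atg5 was at 0.12. None of these values passed the threshold in the fit without the block.

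**Figure D4:**
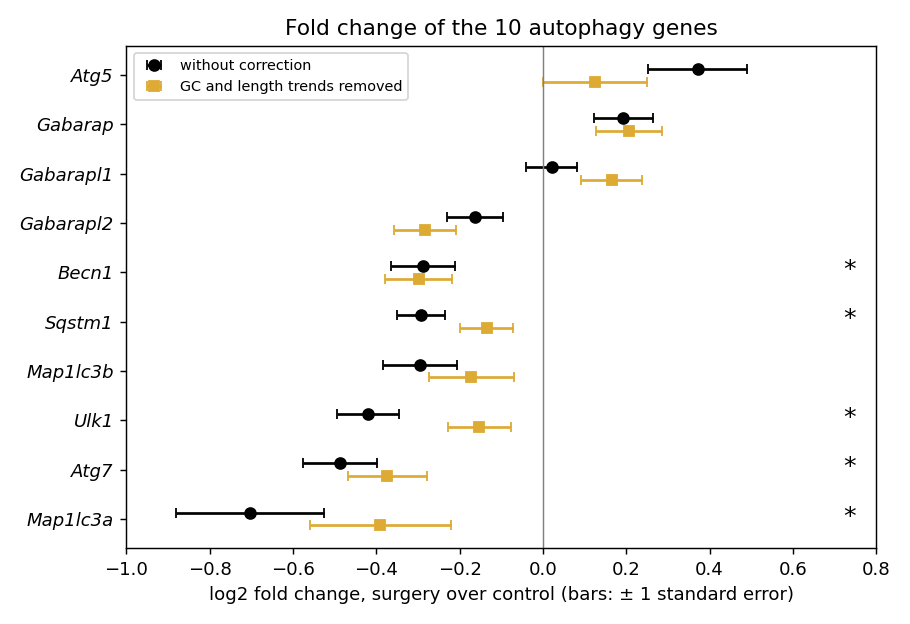
Log2 fold change of surgery over control mice for each of the 10 genes, without correction (black circles) and with GC and length trends removed (yellow squares), with bars of ± 1 standard error. Stars mark the 5 genes with an adjusted p-value under 0.05 without correction; none has one after it.

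The other genes of the pathway were taken from a list of 63, all of which were tested. Of these, 18 were called lower and 6 higher, against 12.8% and 13.1% of all genes, and the median log2 fold change was -0.13. In the initiation complex around Ulk1, Atg101 (-0.76) and Atg13 (-0.23), which stabilise and bridge the kinase complex, fell, while the scaffold gene Rb1cc1, which encodes FIP200, rose (0.88). Rb1cc1 went from 52.2 to 95.9 CPM and Atg101 from 38.8 to 22.9 CPM. Ulk2, the closest relative of Ulk1, was at 0.04 and was not called.

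In the lipid kinase complex around Becn1, the scaffold gene Pik3r4 (-0.32) and the Beclin 1 activator Ambra1 (-0.43) fell, and the other 5 of 7 genes, including the catalytic subunit Pik3c3 (-0.11), were not called. Among 8 genes of membrane supply, those of the scramblase Atg9a (-0.47), the lipid transfer protein Atg2a (-0.39) and the WIPI protein Wdr45 (-0.71) fell, and none was called higher. Over all genes, 12.8% were called lower and 13.1% higher. With GC and length trends removed, none of these 8 genes or of the 7 genes of the lipid kinase complex was called. Gm29253 and Gm45208, which lie on the same strand, overlap 31.8% of the exon bases of Atg9a and 24.7% of those of Wdr45. Of 9 further conjugation genes, the ATG4 proteases were split: Atg4b (-0.29) and Atg4d (-0.46) fell and Atg4c (0.44) rose.

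Among 8 cargo receptor genes besides Sqstm1, Tax1bp1 rose (0.52) and Tollip fell (-0.24), and Nbr1, whose protein resembles p62, was at -0.03 and not called. Of 14 fusion genes, 5 fell, namely Tecpr1 (-0.59), the SNARE Ykt6 (-0.41) and the tethering subunits Vps18 (-0.52), Vps11 (-0.41) and Vps16 (-0.36). The GTPase gene Rab7 rose (0.21). Over all genes, 12.8% were called lower and 13.1% higher. With GC and length trends removed, 1 of the 14 was called lower and 0 higher. Of 13 control genes, Mtor (-0.43), its partner Rptor (-0.53) and the mTORC1 inhibitor Tsc2 (-0.43) fell, whereas Prkaa1 (0.60), a catalytic subunit of the AMP-activated kinase, and Zkscan3 (0.60), a transcriptional repressor of autophagy genes, rose. Tfeb, which encodes the main activator of these genes, had a log2 fold change of -0.44 and an adjusted p-value of 0.057 by edgeR and was not called.

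Among the called genes of the list, Atg13 was called under 4 of the 12 alternatives, Tollip under 5, Rab7 and Wdr45 under 6, Atg4b, Atg4d and Pik3r4 under 7, and the others under 9 to 11. The wider list showed the same relation with base composition, with Pearson's r of -0.79 and Spearman's rho of -0.80 between GC content and log2 fold change over its 63 genes. With the GC and length trends removed, 0 of the 63 were called higher and 1 lower by edgeR, with 3 and 22 at an unadjusted p-value under 0.05, and the median was -0.14. Over all genes, 0.601% were called higher and 1.11% lower in this fit. With the replicate block added, 2 of the 63 were called higher and 15 lower, against 760 and 1600 of all 17144 genes. The gene called lower without the block was Vps41, a tethering subunit that had not been called before and was named after its value was seen. Its log2 fold change went from -0.13 to -0.48 (adjusted p = 0.034, within a range of 0.0022 to 0.61 over the alternatives). Of the 6 genes that rose without the correction, Prkaa1 went from 0.60 to -0.015, Tax1bp1 from 0.52 to 0.011, Atg4c from 0.44 to 0.07 and Rb1cc1 from 0.88 to 0.17, whereas Zkscan3 was at 0.45 and Rab7 at 0.20. All 18 genes that fell without it had negative corrected values, from -0.10 for Atg2a to -0.52 for Wdr45, with Atg101 at -0.51.

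**Figure D5:**
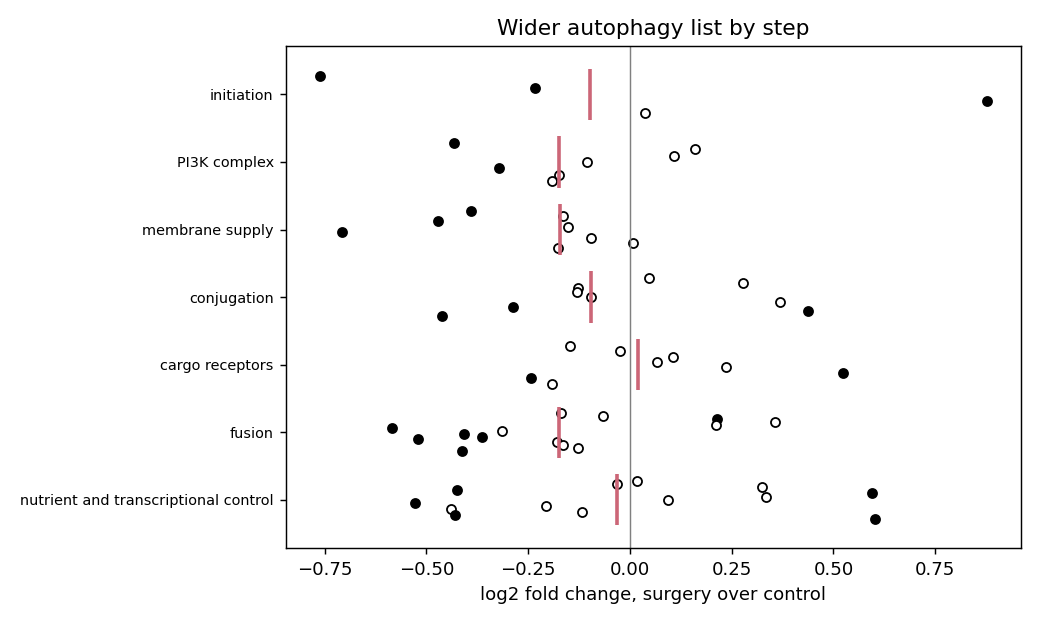
Log2 fold change of surgery over control mice for the 63 genes of the wider autophagy list, grouped by step, with filled points for an adjusted p-value under 0.05 and a red line at the median of each step. The steps hold both signs, and the 6 filled points to the right of 0 stand against 18 to the left.

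The promoter sequences of the members were searched for CACGTG, the core of the element that TFEB binds, which reads the same on both strands. In RefSeq windows on GRCm38.p6 that run from 250 bases before to 50 bases after the start of a gene, 8 of the 10 members matched, Map1lc3a and Becn1 being the ones without an entry. The motif was present in 2 of the 8, against 7.15% of 32851 such windows. The longer form TCACGTGA, which contains it, was present in 0 of the 8 and in 0.974% of all windows. For genes of the wider list, TCACGTGA was present in 4 of 69 windows (5.80%) and CACGTG in 8 of 69 (11.6%). The 2 windows are shown with CACGTG in capitals because they are the windows of members in which it was found.
Atg5 (chr10:44268298-44268338, plus strand): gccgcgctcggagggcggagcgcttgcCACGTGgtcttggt
Atg7 (chr6:114670937-114670996, plus strand): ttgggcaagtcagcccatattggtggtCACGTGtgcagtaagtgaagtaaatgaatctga
The motif starts 14 bases before the start site of Atg5. That of Atg7 starts 132 bases before a RefSeq start that lies inside the gene as the deposited table gives it. The match of these letters is a description of the sequence.

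Over the whole series, TMM factors ran from 0.982 to 1.02, and replicates differed by more than counting noise (chi-square per degree of freedom 13.2 in control and 8.35 in surgery mice). The hippocampal subfield markers Prox1, Wfs1, Spink8 and Pou3f1 were detected in every library, and 1 of the 4, Wfs1, fell (log2 fold change -0.70, edgeR adjusted p = 0.0085). Prox1 was at 0.43, Spink8 at -0.43 and Pou3f1 at -0.23, and these were not called. The sum of 5 neuronal markers was 5532 to 5727 CPM in the control mice and 5091 to 5333 CPM in the surgery mice, and 1 of the 5 (Slc17a7) fell. Choroid plexus markers differed widely within groups, with sums of 92.3 and 5109.6 CPM in control and 1919 and 3269 CPM in surgery mice. For microglia, 1 of 4 markers was called higher, and the sums of 184 to 196 CPM overlapped. Among astrocyte markers 1 of 4 was called higher and 1 lower, 1 of 3 endothelial markers was called higher and 1 of 4 neutrophil markers lower, and no oligodendrocyte or choroid plexus marker was called. With GC and length trends removed none of these marker calls held, although several kept much of their size. Ltf went from -1.63 to -1.60, Flt1 from 0.41 to 0.35, Aqp4 from 0.73 to 0.58, Wfs1 from -0.70 to -0.44, Aldh1l1 from -0.49 to -0.29, Slc17a7 from -0.39 to -0.16 and P2ry12 from 0.84 to 0.18, with edgeR adjusted p-values of 0.0527 to 0.363. The part of these cell types in the members' values was not tested.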

How the data were processed

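The deposited table holds, per gene and mouse, the raw read counts that the authors obtained after filtering reads and mapping them to mm10 with HISAT. The submitters' processing notes name HISAT2 2.1.0 and HTSeq 0.6.0 among the tools, and the use of strand in counting is not given in the sources used here. The table's columns of fold changes and p-values were not used. Counts were filtered (filterByExpr, minimum count 10), TMM-normalized and tested in R 4.3.3 with edgeR 4.0.16 (quasi-likelihood, condition only, Benjamini-Hochberg over all genes). DESeq2 1.42.0 was an alternative. GC content, exon lengths and overlaps came from GENCODE M21, and trends were fitted with mgcv 1.9.3 (basis size 8) and entered as offsets. The procedures were tested on simulated data. All 10 members are described, and of the wider list every called gene is named, whereas Ulk2, Pik3c3, Nbr1, Tfeb and Vps41 were added for their roles or values after the values were seen. Members and lists were chosen with earlier results of these data known. With 2 mice per group and no statement on separate handling, p-values measure the spread between these samples.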

Additional observations from a re-analysis of the deposited data

How the results depend on the processing

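The number of members called lower, 5 as reported, was 4 to 6 with DESeq2's size factors, library totals only, a mean of at least 1 CPM, DESeq2's test and the replicate block, with Map1lc3b called in addition in the last 3 of these and Map1lc3a not called by DESeq2's test. It was 3 without a filter on low counts, and 1 to 5 when single mice were left out. With GC and length trends removed it was 0, and 3 (Becn1, Atg7 and Gabarapl2) when the replicate block was added to that correction. Of members called higher, library totals only gave 2 (Gabarap and Atg5) and the replicate block gave 1 (Atg5). Of all 17144 genes tested, these fits called 2648 and 2655 higher, against 2250 in the main fit. The number of genes of the wider list called lower was 1 and called higher 0 with the GC and length trends removed, and with the block added 15 were called lower and 2 higher. The members' median log2 fold change of -0.29 moved to -0.16 with that correction and to -0.17 with the block added, and ran from -0.29 to -0.22 when each mouse was left out. The log2 fold change of Gabarapl1 ran from -0.045 to 0.076 when single mice were left out and was negative without the second control mouse (-0.0038) and without the first surgery mouse. With longest-transcript lengths the Map1lc3b share of the ATG8 family was 9.84% and 9.02% in place of 6.47% and 5.98%, and the order of Becn1 and Atg5 no longer differed between groups. No other member changed sign under the 12 alternatives. Replicate numbers are shared between groups, but nothing in the labels pairs the mice, and the correlation of deviations of same-numbered libraries over genes was 0.22. Over all genes, 2250 were called higher and 2199 lower, against 1315 and 1350 without a filter, 103 and 190 with the GC and length trends removed, 760 and 1600 with the block added, and 1201 and 1207 without the second control mouse. Without the second surgery mouse 1347 were called lower. The causes of these shifts were not tested.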
